A study of Mus musculus with 6 samples.

Results

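The genes described here are 10 genes of the MHC class I presentation pathway, measured by single-cell RNA sequencing in the stromal vascular cells of mouse inguinal white adipose tissue (iWAT). They were taken by symbol from the gene list that comes with the counts and are 10 of its 31053 genes: B2m, H2-K1, H2-D1, H2-Q4, H2-Q6, H2-Q7, H2-Q10, H2-T23, Tap1 and Psmb8. The cells came from male C57BL/6 mice that were young (9 weeks) or aged (57 weeks), and every mouse was first acclimated to 30 °C. Mice then stayed at 30 °C (thermoneutral, TN) or were moved to 6 °C for the last 3 days (3D cold) or for 14 days (14D cold). Each age and temperature gave 1 library, 6 in all, from live cells sorted against CD45, the surface protein of immune cells, so the few immune cells in the data are those that passed the sort. The mice came from the National Institute on Aging (C57BL/6JN) or Jackson Laboratories (C57BL/6J), and the sources used here do not say which source gave which library. With 1 library per condition, age is compared over 3 libraries against 3 with temperature as a term, and the spread is that between libraries.

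MHC class I molecules show peptides from inside the cell to cytotoxic T cells and natural killer cells. Each consists of a heavy chain and the light chain beta-2 microglobulin, the product of B2m. H2-K1 and H2-D1 encode the classical heavy chains of the mouse, which nearly all nucleated cells carry, and the H2-Q genes and H2-T23 encode nonclassical or less variable heavy chains. H2-Q7 and its near copies encode Qa-2, H2-T23 encodes Qa-1, which natural killer cells read through CD94/NKG2A, and H2-Q10 encodes a heavy chain that is known as a secreted protein of the liver. Psmb8 encodes LMP7, a catalytic subunit of the immunoproteasome that cuts proteins into peptides, and Tap1 encodes a subunit of the transporter that carries those peptides into the endoplasmic reticulum. Interferon gamma induces much of the pathway, and NLRC5 is the transactivator that acts at class I promoters.

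Of the 10 genes, 9 lie in the MHC on chromosome 17, between positions 33996017 and 36032855 of GRCm38, and B2m lies on chromosome 2 (122147686 to 122153083, plus strand). H2-K1 spans 33996017 to 34000347 on the minus strand, and H2-D1 spans 35262730 to 35267499 on the plus strand. Tap1 (34187553 to 34197225) and Psmb8 (34197721 to 34201454) are neighbours on the plus strand. H2-Q4 (35379617 to 35385290), H2-Q6 (35424850 to 35430055), H2-Q7 (35439155 to 35443773) and H2-Q10 (35470089 to 35474563) follow each other on the plus strand, and H2-T23 (36029773 to 36032855) is on the minus strand. The 200 bases before the start of transcription are shown for 4 of them: B2m and H2-K1, the gene whose levels over the cell classes below are most like those of B2m, and H2-Q7 and H2-Q10, which are highest in different classes. The sequences are from RefSeq (GRCm38), 5′ to 3′ on the gene's strand, and all 10 genes matched. The RefSeq start is not always the edge of the span given above. The windows of Psmb8 (34197995 to 34198194) and H2-D1 (35262894 to 35263093) lie inside those spans, and that of H2-T23 (36032702 to 36032901) overlaps its span. Capitals mark letters of 4 elements searched on both strands: GAANNGAAA (interferon response type), the NF-kB type element (GGG, any 2 bases, TT, any base, CC), TGACG (X2 or CRE type) and CCAAT (Y box). The windows are chr2:122147487-122147686 (plus) for B2m, chr17:34000348-34000547 (minus) for H2-K1, chr17:35438955-35439154 (plus) for H2-Q7 and chr17:35469889-35470088 (plus) for H2-Q10.
B2m: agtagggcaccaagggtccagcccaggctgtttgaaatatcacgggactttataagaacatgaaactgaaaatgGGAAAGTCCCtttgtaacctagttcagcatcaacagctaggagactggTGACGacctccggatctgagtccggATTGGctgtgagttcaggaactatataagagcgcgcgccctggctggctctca
H2-K1: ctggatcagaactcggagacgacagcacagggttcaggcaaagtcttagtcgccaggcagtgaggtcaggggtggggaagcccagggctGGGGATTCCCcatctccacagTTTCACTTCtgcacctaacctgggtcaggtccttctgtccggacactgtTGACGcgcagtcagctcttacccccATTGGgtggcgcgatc
H2-Q7: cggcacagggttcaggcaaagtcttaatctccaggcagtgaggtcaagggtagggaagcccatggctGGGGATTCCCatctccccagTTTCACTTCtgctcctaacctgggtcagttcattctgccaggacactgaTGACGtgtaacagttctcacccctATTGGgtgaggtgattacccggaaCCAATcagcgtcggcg
H2-Q10: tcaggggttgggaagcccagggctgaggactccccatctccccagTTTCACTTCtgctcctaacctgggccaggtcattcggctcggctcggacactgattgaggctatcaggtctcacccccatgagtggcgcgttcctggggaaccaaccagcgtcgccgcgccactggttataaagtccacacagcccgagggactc
H2-K1 and H2-Q7 held all 4 elements in this window, and H2-Q10 held only the interferon response type. B2m held the NF-kB type letters, TGACG and CCAAT, and not GAANNGAAA. Its window does hold gaaactgaaa, with 1 base more between GAA and GAAA than that pattern, a spacing that was not searched. Of the windows not shown, those of H2-T23 and Tap1 also held 1 element each (CCAAT and TGACG) and that of Psmb8 held none. The H2-T23 window holds the same wider spacing on the other strand (tttctctttc), and the counts of GAANNGAAA leave such forms out. Over all 10 genes, 6 held GAANNGAAA, 6 the NF-kB type element, 6 TGACG and 7 CCAAT, against 5.79%, 3.93%, 17.5% and 32.7% of the 27025 genes with a promoter in the table. The 6 with GAANNGAAA were H2-K1, H2-D1, H2-Q4, H2-Q6, H2-Q7 and H2-Q10. They are heavy chain genes of 1 family whose windows share TTTCACTTC and much of the sequence around it. These 6 are therefore not separate cases to set against the share of all genes. These are matches of letters, and no binding was measured.

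Each library held between 52068837 and 88508349 UMIs (unique molecular identifiers, each counted as 1 captured RNA molecule) in 10172 to 12033 barcodes. The aged 14D library stood apart in depth: its kept cells had a median of 2741.5 UMIs, against 6726 to 9904 in the others, and 36.5% of them had fewer than 2000. Any 2 libraries shared 30 to 44 cell barcodes, under 1% of the smaller library. Cells were put into classes by a gate on marker genes, none of which is one of the 10 genes. The gate gave 20039 Dpp4+ fibroblasts, 16209 Icam1+ preadipocytes, 5400 Cd142+ fibroblasts, 3794 endothelial cells, 728 smooth muscle cells and pericytes (SMC/pericytes), 116 Schwann cells and 245 immune cells. The first 3 are the adipocyte stem and progenitor cells (ASPCs) of iWAT. The median cell of the Dpp4+ class held 8 of its 10 markers, that of the Icam1+ class 8 of 10, and that of the Cd142+ class 5 of its 9 markers together with 5 of the 10 Icam1+ markers, so the Cd142+ class is the least distinct of the 3. It made up 14.7% of the kept cells of the aged 14D library, against 7.10% to 9.20% in the others. Of its 1597 cells there, 871 had at least 2000 UMIs. In Leiden clusters, used below in place of the gate, 574 cells of that library were named Cd142+, against 512 to 752 in the others. Of the 5400 gated Cd142+ cells, 1581 fell in clusters without a name. A level is given as CPM, the gene's UMIs per 1000000 UMIs of that class in that library. The kit counts each molecule once at its 3′ end, so levels do not scale with gene length. Within the last 500 bases of the longest coding transcript, no stretch of 90 bases of B2m, H2-K1, H2-D1, H2-Q7, H2-Q10, Tap1 or Psmb8 was identical to a transcript of another gene. Such stretches were 9.49% of those of H2-Q4, 10.9% of H2-Q6 and 13.4% of H2-T23, whose counts are less certain for that reason. H2-Q6 and H2-Q7 are close paralogs, and how their reads were divided was not tested beyond this search.

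The cell classes differed widely in the pathway, and SMC/pericytes were lowest for the light chain and both classical heavy chains. B2m was at 2090.0 ± 173 CPM (SD, n = 6 libraries; 1866 to 2271) in Icam1+ preadipocytes and 1836 ± 119 (1697 to 1998) in endothelial cells. In Dpp4+ fibroblasts it was 1244 ± 201 (1066.5 to 1549.9), in Cd142+ fibroblasts 1169 ± 138 (1013 to 1341), and in SMC/pericytes 396 ± 100.4 (292 to 559). Immune cells held the highest mean, 2628 ± 503 CPM (2030.3 to 3412), a range that overlaps that of Icam1+ preadipocytes. The Icam1+ libraries were all above all Dpp4+ and Cd142+ libraries, which overlapped each other, and the SMC/pericyte libraries were below every other class.

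H2-K1 and H2-D1 followed B2m among the ASPC classes. H2-K1 was at 1709 ± 206 CPM in Icam1+ preadipocytes, 792 ± 78.6 in Dpp4+ fibroblasts and 748 ± 58.9 in Cd142+ fibroblasts, and H2-D1 at 1928 ± 226, 893 ± 108 and 902 ± 76.9 in the same order. Endothelial cells held more of both than any ASPC class did on average, 2220.3 ± 163 CPM of H2-K1 and 2594 ± 144 of H2-D1. For H2-K1 the endothelial range (2057 to 2501) met that of Icam1+ preadipocytes (1485 to 2068), and for H2-D1 (2428 to 2779) it did not (1573 to 2273). SMC/pericytes held 344 ± 89.8 CPM of H2-K1 and 471 ± 107 of H2-D1.

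**Figure D1:**
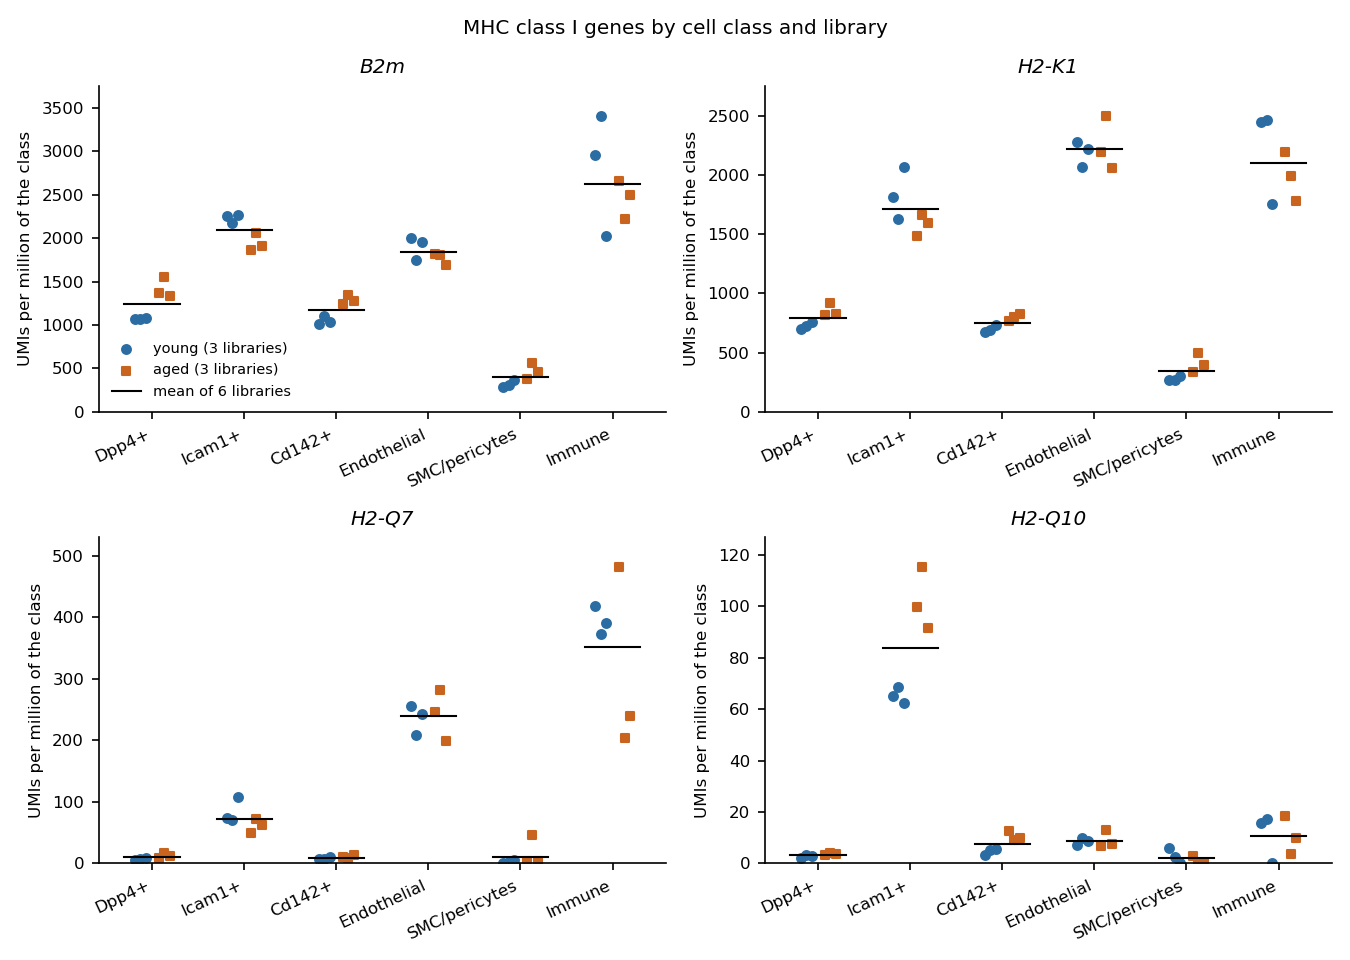
Levels of B2m, H2-K1, H2-Q7 and H2-Q10 (vertical axes, CPM, each from 0) in the 6 tested cell classes (horizontal axes). Each point is 1 library, circles are the 3 young and squares the 3 aged libraries, and the line is the mean of 6. H2-Q10 stands at 62.6 to 115 in Icam1+ preadipocytes and at 18.5 or less in every library of the other classes, while H2-Q7 is highest in endothelial and immune cells.

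Among the ASPC classes, tests between classes used edgeR's quasi-likelihood test on the sums of 6 classes and 6 libraries with library as a block and Benjamini-Hochberg adjustment over all genes. Of the 10 genes, 9 were lower in Dpp4+ fibroblasts than in Icam1+ preadipocytes, against 59% of 13735 genes called in either direction and 28.8% called lower. The median log2 fold change of the 10 was -1.17, and that of all genes tested 0.0041. The exception was H2-T23 (log2 fold change -0.11 ± 0.11 SE, adjusted p = 0.43), the Qa-1 gene, at 105 ± 20.7 CPM in Dpp4+ fibroblasts and 108 ± 18.1 in Icam1+ preadipocytes. B2m was 1.76-fold lower in Dpp4+ fibroblasts (log2 fold change -0.82 ± 0.13, adjusted p = 7.4e-07), and H2-K1 and H2-D1 were both 2.25-fold lower (log2 fold change -1.17 ± 0.12 for H2-K1, edgeR adjusted p = 9.0e-11). Tap1 was 1.84-fold lower, at 20.7 ± 2.04 against 36.9 ± 6.31 CPM. Psmb8 differed least of the genes that passed (log2 fold change -0.27 ± 0.11, edgeR adjusted p = 0.027), and it did not pass without the young 3D (-0.21, adjusted p = 0.15) or the young 14D library (-0.23, adjusted p = 0.11).

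Cd142+ fibroblasts stood beside Dpp4+ fibroblasts in this respect. Again 9 of the 10 genes were lower than in Icam1+ preadipocytes, against 33.4% of 13735 genes called in either direction and 16.2% called lower, and H2-T23 was again the exception (log2 fold change 0.21 ± 0.12, edgeR adjusted p = 0.17). It passed as higher in Cd142+ fibroblasts with DESeq2 (0.24, adjusted p = 0.043), a stricter gate (0.27, adjusted p = 0.013) or thinned cells (0.26, adjusted p = 0.037). H2-K1 was 2.32-fold lower and B2m 1.83-fold lower. Between Dpp4+ and Cd142+ fibroblasts 4 genes passed, against 43.9% of all genes, 21.9% lower and 22% higher: H2-Q4 was 1.82-fold and H2-Q10 2.36-fold lower in Dpp4+ fibroblasts, H2-T23 was 1.25-fold lower, and H2-Q6 1.64-fold higher. B2m, H2-K1, H2-D1, H2-Q7, Tap1 and Psmb8 did not pass there. H2-T23 and H2-Q6 are the weaker of those 4. H2-T23 did not pass without the young 3D (-0.32, adjusted p = 0.065), the young 14D (-0.31, adjusted p = 0.063) or the aged TN library (-0.29, adjusted p = 0.066). H2-Q6 did not pass without the young 3D (0.74, adjusted p = 0.051) or the aged 3D library (0.53, adjusted p = 0.16), or with cells thinned to 2000 UMIs (0.77, adjusted p = 0.11).

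H2-Q10 was the gene that set Icam1+ preadipocytes apart. By the letters searched, its promoter window, printed above, held 1 of the 4 elements, as did those of H2-T23 and Tap1. In Icam1+ preadipocytes it was at 65.1, 68.6 and 62.6 CPM in the young TN, 3D and 14D libraries, and at 99.9, 115 and 91.5 CPM in the aged ones, from 1140 to 2812 UMIs per library. In Dpp4+ fibroblasts it was between 2.04 and 4.07 CPM, in Cd142+ fibroblasts between 3.36 and 12.8, and in endothelial cells between 6.76 and 12.9. SMC/pericytes held 0 to 3 UMIs of it per library and immune cells 0 to 6. No library of another class came near the lowest Icam1+ library. The difference was 26.8-fold between Icam1+ preadipocytes and Dpp4+ fibroblasts (log2 fold change -4.74 ± 0.13 for Dpp4+ over Icam1+, edgeR adjusted p = 2.9e-26). Against Cd142+ fibroblasts it was 11.4-fold (-3.51 ± 0.14, edgeR adjusted p = 1.2e-20).

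The same gene stood out against its own gene family. For every 100 UMIs of H2-K1, Icam1+ preadipocytes held 3.03 to 6.94 UMIs of H2-Q10, and Dpp4+ fibroblasts 0.291 to 0.459. The ratio was 0.496 to 1.67 in Cd142+ fibroblasts and 0.308 to 0.517 in endothelial cells. H2-Q7, by contrast, held 4.21 UMIs per 100 of H2-K1 on average in Icam1+ preadipocytes, 1.20 in Dpp4+ fibroblasts, 1.21 in Cd142+ fibroblasts and 10.7 in endothelial cells. So the Icam1+ class held more H2-Q10 than H2-Q7 in its aged libraries (91.5 to 115 against 50.1 to 71.7 CPM), which no endothelial library did. The aged TN and aged 3D libraries of Cd142+ fibroblasts did so too, at far lower levels (12.8 against 9.84 and 9.11 against 8.02 CPM, 44 to 61 UMIs each).

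Endothelial cells and immune cells carried the most of the Qa-2 genes and of Psmb8. H2-Q7 was at 239 ± 30.8 CPM (199 to 282) in endothelial cells and 351 ± 108 (203 to 481) in immune cells, against 72.8 ± 19.6 in Icam1+ preadipocytes, 9.74 ± 4.01 in Dpp4+ fibroblasts and 9.15 ± 2.45 in Cd142+ fibroblasts. H2-Q6 was at 119 ± 27.8 CPM in endothelial cells and 109 ± 38.7 in immune cells, against 40.7 ± 12.0 in Icam1+ preadipocytes and 8.52 ± 4.16 in Dpp4+ fibroblasts. Psmb8 was at 313 ± 12.1 CPM in endothelial cells, 437 ± 89.9 in immune cells, and 85.9 ± 11.3 to 111 ± 14.8 in the ASPC classes. Against the mean of the 3 ASPC classes, endothelial cells had 8 of the 10 genes higher (35.4% of 13735 genes called higher) and 1, H2-Q10, lower (38.9% called lower, 74.3% in either direction). The largest differences were 10.5-fold for H2-Q7 and 8.25-fold for H2-Q6, and Psmb8 was 2.61-fold higher. B2m did not pass (log2 fold change 0.03 ± 0.10, edgeR adjusted p = 0.78). The lower level of H2-Q10 (log2 fold change -0.88 ± 0.18) did not pass once cells were thinned to 2000 UMIs (-0.14, adjusted p = 0.60). Its mean in endothelial cells, 8.79 CPM, was below that of Icam1+ preadipocytes (83.8) only, and above those of Cd142+ (7.62) and Dpp4+ fibroblasts (3.18).

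For immune cells 8 of the 10 genes were higher than in ASPCs, against 23% of genes called higher and 55.9% in either direction, with H2-Q7 16.3-fold and Psmb8 3.80-fold higher. H2-Q4 and H2-Q10 did not pass. The median log2 fold change of all genes was -0.28 in that contrast and -0.12 in the next. In SMC/pericytes B2m, H2-K1, H2-D1, H2-Q4, H2-T23, Tap1 and Psmb8 were lower than in ASPCs, where 30.6% of genes were called lower and 55.2% in either direction. The difference was 4.99-fold for B2m and 3.99-fold for H2-K1, and it was smallest of these for Tap1, at 1.55-fold, which did not pass with cells thinned to 2000 UMIs (log2 fold change -0.73, adjusted p = 0.062). H2-Q6, H2-Q7 and H2-Q10 entered this fit through their levels in the other classes. The SMC/pericytes held 5, 26 and 6 UMIs of them in all 6 libraries together, 18 of the 26 in the aged 3D library, so their folds are not given although they also passed as lower. H2-Q7 did not pass without the young 3D, young 14D, aged TN or aged 14D library (adjusted p = 0.058 to 0.12). With Leiden clusters in place of the gate, H2-Q6 and H2-Q7 came out higher in SMC/pericytes (log2 fold change 0.48 and 0.52) and did not pass. That cluster is 55.3% cells of the SMC/pericyte gate.

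Schwann cells, 14 to 37 per library, were too few to test. Their values for the classical heavy chains lay outside those of the other classes in balance. They held 1734, 2374 and 3581 CPM of H2-D1 in the young TN, 3D and 14D libraries and 912, 2080 and 1809.5 in the aged ones, while H2-K1 was between 460 and 714 CPM. Per 100 UMIs of H2-K1 that is 198 to 558 of H2-D1, from 71 to 184 UMIs of H2-D1 a library. Every other class lay between 87.5 and 174 in every library. H2-Q6 was at 0 UMIs in all 6 Schwann libraries, of 39237 to 121686 UMIs each, a count that allows up to 3 UMIs a library.

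With age, B2m, H2-Q6 and H2-Q7 rose in Dpp4+ fibroblasts, and H2-Q10 rose in Icam1+ preadipocytes and in Cd142+ fibroblasts. In Dpp4+ fibroblasts B2m was at 1066.5, 1073 and 1082 CPM in the young TN, 3D and 14D libraries and at 1367, 1549.9 and 1328 in the aged ones. Every aged library was above every young one, and the SD among the 3 young libraries was 7.80 CPM. B2m was 1.29-fold higher in aged Dpp4+ fibroblasts (log2 fold change 0.36 ± 0.08 SE, edgeR adjusted p = 0.0099). H2-Q6 was at 4.23, 5.34 and 5.77 CPM in the young and 11.3, 14.98 and 9.51 in the aged libraries, from 139 to 350 UMIs each. It was 2.25-fold higher with age (log2 fold change 1.17 ± 0.16, edgeR adjusted p = 0.00081). H2-Q7 was at 5.08, 6.91 and 8.49 CPM in the young and 9.24, 16.1 and 12.6 in the aged libraries, also with no overlap, and 1.81-fold higher (0.85 ± 0.14, edgeR adjusted p = 0.0022).

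These 3 of the 10 genes passed for age in Dpp4+ fibroblasts, all higher, where 16.2% of 13173 genes were called in either direction and 7.93% higher. The median log2 fold change was 0.22 for the 10 genes and 0.0024 for all genes. In 5 of them every aged library lay above every young one, against 12.8% of genes. H2-K1 (log2 fold change 0.19 ± 0.07, edgeR adjusted p = 0.11) and Psmb8 (0.24 ± 0.08, adjusted p = 0.073) were the others of those 5 and did not pass. H2-D1 (0.07 ± 0.08), Tap1 (0.03 ± 0.08) and H2-Q4 (0.03 ± 0.13) were near 0. The aged 3D library was the highest for all 10 genes here, and with temperature as a term each temperature contributes 1 pair. Without the young 3D or the aged 3D library 2 genes passed, and B2m was not among them (0.28, adjusted p = 0.13 in both). Without the young TN, the aged TN or the aged 14D library 5 passed, and without the young 14D library 6. The share of all genes called in those fits is not given, so these counts cannot be set against the 16.2% above. Without a term for temperature only H2-Q6 passed. The make-up of the class also moved with age. In clusters built without the 10 genes, the markers or the gene lists, 1 of the 3 Dpp4+ clusters (cluster 3) held 1276, 1204 and 1652 cells of the young TN, 3D and 14D libraries and 324, 1043 and 177 of the aged ones. The part of this shift in the age changes was not tested.

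**Figure D2:**
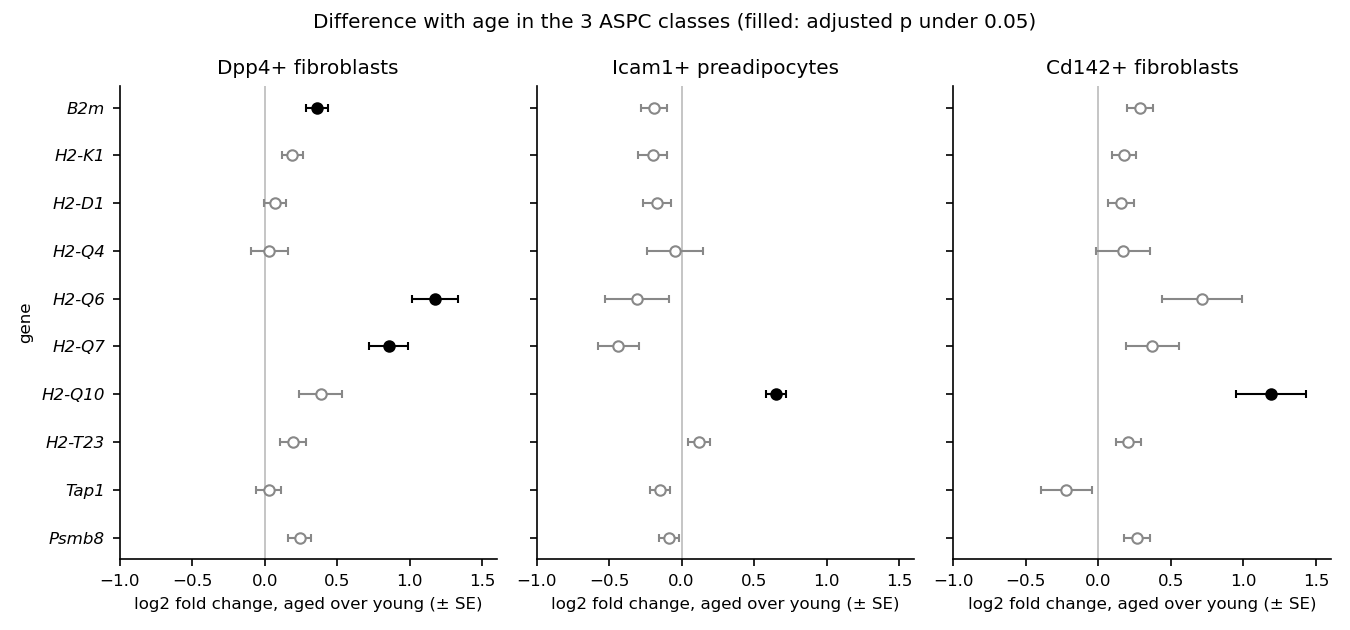
Log2 fold change of aged over young (horizontal axis, ± SE) for the 10 genes (vertical axis) in the 3 ASPC classes, from edgeR with temperature as a term on 3 young and 3 aged libraries. Filled points have an adjusted p under 0.05. B2m, H2-Q6 and H2-Q7 lie at 0.36, 1.17 and 0.85 in Dpp4+ fibroblasts and at -0.19, -0.31 and -0.44 in Icam1+ preadipocytes, where H2-Q10 lies at 0.65.

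In Icam1+ preadipocytes H2-Q10 was 1.57-fold higher with age (65.4 ± 3.01 CPM in young and 102 ± 12.0 in aged libraries, SD, n = 3 each, log2 fold change 0.65 ± 0.07, edgeR adjusted p = 0.00067). It was higher in the aged library at each of the 3 temperatures, and it passed under every alternative tried, with log2 fold changes of 0.57 to 0.73. The aged TN library stood apart in this class: of the 2 Icam1+ clusters, cluster 6 held 2605 of its cells against 66 to 157 of each other library, and cluster 0 held 793 against 1573 to 3175. Without that library H2-Q10 was still called (log2 fold change 0.68, edgeR adjusted p = 4.4e-05). It was the 1 of the 10 genes to pass, where 13.1% of 13082 genes were called and 7.32% called higher. B2m lay the other way, at 2259, 2169 and 2271 CPM in the young and 1866, 2061 and 1913 in the aged libraries, without passing (log2 fold change -0.19 ± 0.09, edgeR adjusted p = 0.21). H2-K1 (-0.20 ± 0.10), H2-D1 (-0.17 ± 0.10) and H2-Q7 (-0.44 ± 0.14, adjusted p = 0.077) lay on the same side. H2-Q7 passed without the young 3D or the aged 3D library (-0.70, adjusted p = 0.016 and 0.017) and with a stricter gate (-0.51, adjusted p = 0.040). Beside H2-Q10 with every aged library above every young one (10.6% of genes), B2m was the gene with every aged library below (11.1% of genes).

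Cd142+ fibroblasts had H2-Q10 2.28-fold higher with age, at 3.36, 5.03 and 5.39 CPM in the young and 12.8, 9.11 and 10.0 CPM in the aged libraries, 18 to 61 UMIs each (log2 fold change 1.19 ± 0.24, edgeR adjusted p = 0.00999). It was the 1 gene of 10 to pass, where 9.64% of 11351 genes were called and 4.72% higher. That call rests on few UMIs and on the gate: it did not pass with DESeq2 (1.21, adjusted p = 0.15), with a stricter gate (0.87, adjusted p = 0.062), in Leiden clusters (0.33, adjusted p = 0.55), with cells thinned to 2000 UMIs (1.25, adjusted p = 0.17), or without the aged TN library (0.87, adjusted p = 0.051). The summed Icam1+ markers in this class were at 4941 to 5394 CPM in the young and 3234 to 5006 in the aged libraries, and the summed endothelial markers at 11.3 to 13.6 and 13.5 to 195. Their part in the result was not tested. B2m was at 1013, 1108 and 1029 CPM in the young and 1245, 1341 and 1277 in the aged libraries, which do not overlap, and did not pass (0.29 ± 0.09, edgeR adjusted p = 0.063), though it did with DESeq2 (0.29, adjusted p = 0.048), fixed limits on cells (0.29, adjusted p = 0.047) or Leiden clusters (0.28, adjusted p = 0.039). B2m, H2-K1, H2-Q6, H2-Q10 and Psmb8 had every aged library above every young one, 5 of 10 against 11% of genes. At the H2-Q6 to marker ratio of its endothelial cells, the aged 14D library's 195 CPM of endothelial markers go with 1.97 CPM of H2-Q6. Its H2-Q6 was at 5.94 CPM, and the young libraries held 2.80 to 4.65. The same reckoning gives 36.4 of 1277 CPM for B2m there, and at most 0.272 CPM of H2-Q6 in the other aged libraries. The part of this in the H2-Q6 difference was not tested. Without the young 14D or the aged 14D library H2-Q4 passed too (0.56 and 0.55).

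The difference between classes in the effect of age was tested directly, on 12 sums of 2 classes with library as a block. Between Dpp4+ fibroblasts and Icam1+ preadipocytes the log2 fold change with age differed by 0.54 ± 0.09 for B2m (edgeR adjusted p = 0.021), 1.484 ± 0.14 for H2-Q6 (adjusted p = 0.0012) and 1.29 ± 0.12 for H2-Q7 (adjusted p = 0.0012). These were 3 of the 10 genes, all toward Dpp4+ fibroblasts, where 1.72% of 13735 genes were called and 0.502% in that direction. With each library left out in turn (an alternative chosen after seeing the data) H2-Q6 and H2-Q7 passed every time, with differences of 1.39 to 1.64 and 1.18 to 1.41. B2m passed only without the aged TN library (0.51, adjusted p = 0.031) and otherwise had adjusted p = 0.058 to 0.081, at 0.52 to 0.58. Between Cd142+ fibroblasts and Icam1+ preadipocytes, B2m differed by 0.47 ± 0.08 (edgeR adjusted p = 0.0099) and H2-K1 by 0.38 ± 0.08 (adjusted p = 0.049), 2 of 10 genes against 1.3% of 12472 genes called and 0.449% in that direction. B2m did not pass without the young 14D library (0.46, adjusted p = 0.062). H2-K1 did not pass with RLE factors (adjusted p = 0.053) or with any library other than the young 3D left out (adjusted p = 0.062 to 0.23). Without the aged 3D library H2-Q6 (1.43) and H2-Q7 (1.12) passed there too. Between Dpp4+ and Cd142+ fibroblasts none of the 10 passed in edgeR and 1, H2-Q10, had an unadjusted p under 0.05, and 1.18% of 12574 genes were called. None passed for endothelial cells (0.495% of 13341 genes called) or SMC/pericytes (0.562% of 12998) against Icam1+ preadipocytes in edgeR, where 3 and 5 of the 10 had an unadjusted p under 0.05. DESeq2 called 2 of them for SMC/pericytes, B2m (0.78) and H2-K1 (0.83), and 0 in the other comparisons without an edgeR call. In edgeR H2-Q4 or H2-Q7 passed for SMC/pericytes without the young TN, aged TN, aged 3D or aged 14D library. H2-Q6, H2-Q7 and H2-Q10 entered the SMC/pericyte fit through their levels in Icam1+ preadipocytes. The SMC/pericytes held 5, 26 and 6 UMIs of them in all 6 libraries together, 18 of the 26 in the aged 3D library. The count by unadjusted p and the H2-Q7 calls for SMC/pericytes carry that limit. All these contrasts use the same libraries, and those against Icam1+ preadipocytes share its sums.

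**Figure D3:**
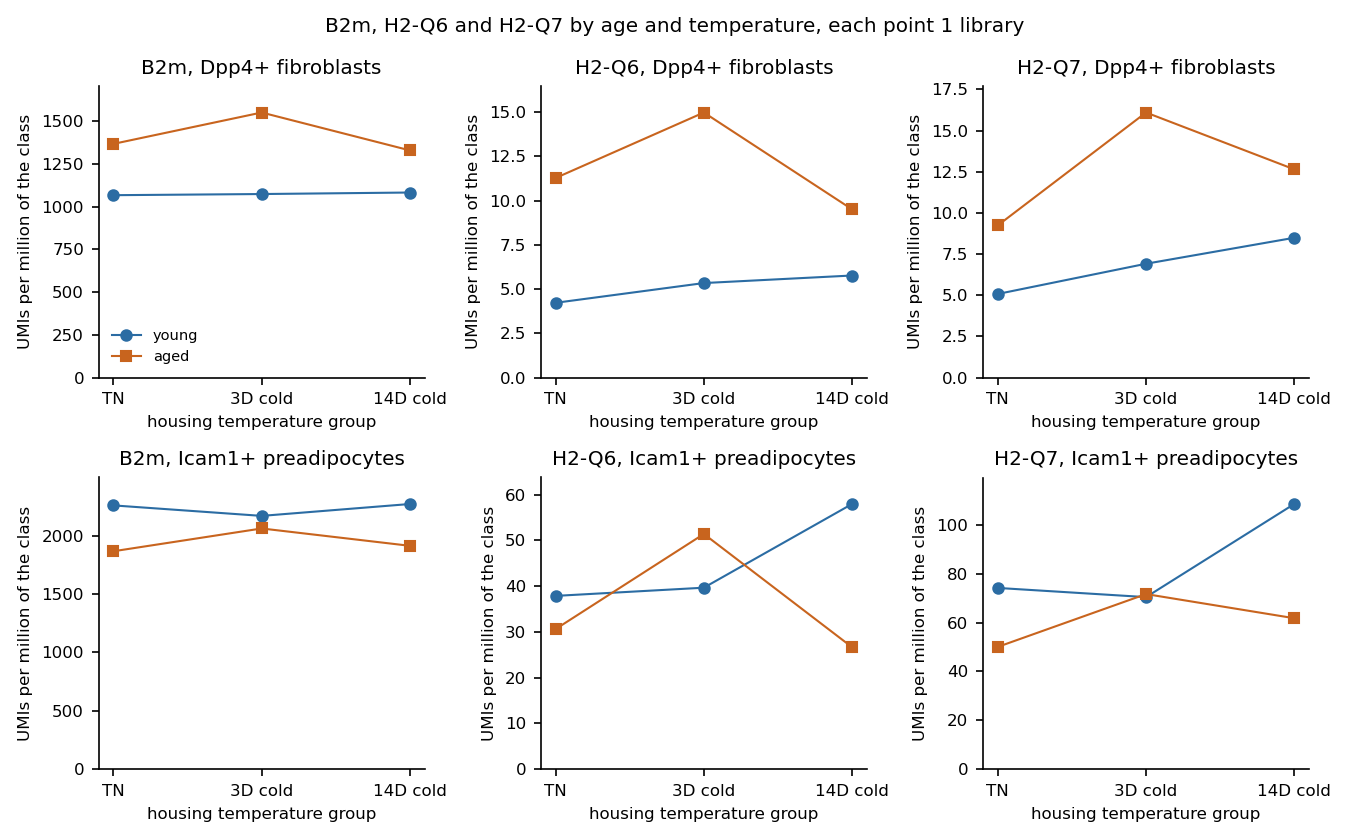
Levels of B2m, H2-Q6 and H2-Q7 (vertical axes, CPM, from 0) at TN and after 3 and 14 days of cold (horizontal axes) in Dpp4+ fibroblasts (top) and Icam1+ preadipocytes (bottom). Each point is 1 library, circles young and squares aged. In Dpp4+ fibroblasts the aged library is the higher at every temperature for all 3 genes, with H2-Q6 at 9.51 to 14.98 against 4.23 to 5.77, and in Icam1+ preadipocytes B2m is lower in the aged library at every temperature.

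Some markers used in the gate moved with age. In Dpp4+ fibroblasts Col1a1 (log2 fold change -1.92), Col3a1 (-1.99) and Pi16 (-0.57) passed as lower, and Cd55 (0.51) and Dact2 (0.51) as higher. In Icam1+ preadipocytes Hmcn2 (1.46) and Icam1 (0.52) were higher and Col15a1 (-0.56) lower. In Cd142+ fibroblasts Clec11a (-1.06), Fmo2 (-0.59) and Gdf10 (-0.45) were lower. Their effect on which cells were gated at each age was not tested. Markers of other cells moved with age in these classes too. The 10 endothelial markers, all detected, summed to 9.51 to 13.6 CPM in young and 14.3 to 43.4 in aged Dpp4+ fibroblasts, where 6 of them passed as higher, and to 8.08 to 12.3 and 10.0 to 64.9 CPM in Icam1+ preadipocytes, where 3 did. At the ratio of H2-Q7 to those markers in the endothelial cells of the same library, that amount goes with at most 0.950 CPM of H2-Q7 and 0.438 CPM of H2-Q6 in a Dpp4+ library. The 10 immune markers summed to 2.20 to 2.90 CPM in young and 1.67 to 5.57 in aged Dpp4+ fibroblasts, which by the same reckoning goes with at most 0.130 CPM of H2-Q7 and 0.0411 CPM of H2-Q6. The 4 adipocyte markers summed to 4.23 to 7.55 CPM in young and 5.604 to 14.0 in aged Dpp4+ fibroblasts, and Adipoq (log2 fold change 1.94), Cidec (1.36) and Car3 (0.90) passed as higher. Adipoq (1.43) and Cidec (2.33) passed in Icam1+ preadipocytes too, and Car3 (1.64) in Cd142+ fibroblasts. The 10 SMC/pericyte markers summed to 35.5 to 41.5 CPM in young and 29.9 to 69.3 in aged Dpp4+ fibroblasts, with Rgs5 higher (1.66) and Kcnj8 (-2.10) and Abcc9 (-1.87) lower. Rgs5 was also higher in aged Icam1+ preadipocytes (2.06) and Cd142+ fibroblasts (3.32). In Icam1+ preadipocytes Des (1.39) and Cspg4 (0.97) also passed as higher, and Kcnj8 (-1.31) and Abcc9 (-0.67) as lower. In Cd142+ fibroblasts Abcc9 (-0.80) passed as lower. Icam1+ markers in Dpp4+ fibroblasts were lower with age, at 729.6 to 800.4 against 498 to 688 CPM. The 7 class II genes, which mark antigen-presenting immune cells, summed to 6.08 to 7.17 CPM in young and 6.91 to 18.6 in aged Dpp4+ fibroblasts, and 3 of 6 tested passed as higher (H2-Ab1 3.14-fold, H2-Aa 2.36-fold and Cd74 2.14-fold), with Cd74 highest in the aged 14D library at 6.65 CPM. In immune cells the same 7 genes summed to 10872 or more in every library. In Icam1+ preadipocytes 0 of 6 and in Cd142+ fibroblasts 0 of 4 class II genes passed for age in edgeR, with 0 and 2 at an unadjusted p under 0.05. Of other cell types, Schwann markers (9 of 10 detected in some library) were at 55.9 to 66.9 CPM in young and 77.7 to 85.3 in aged Dpp4+ fibroblasts, mesothelial markers at 3.89 to 8.52 and 8.08 to 28.9, and 3 red blood cell genes at 2.88 to 131 and 58.6 to 454. The part of these other cells in the results was not tested.

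In endothelial cells, SMC/pericytes and immune cells none of the 10 genes passed for age in edgeR or DESeq2. In endothelial cells 1.97% of 10170 genes were called, and 2 of the 10 had an unadjusted p under 0.05. These were H2-Q4 (log2 fold change 0.35 ± 0.15, adjusted p = 0.31) and H2-Q6 (0.36 ± 0.14, adjusted p = 0.25), and both passed without the young 14D or the aged 14D library (0.50 and 0.59). B2m (-0.05 ± 0.08) and Psmb8 (-0.01 ± 0.08) lay near 0. In SMC/pericytes 6 of the 10 genes had enough UMIs to be tested, 3 had an unadjusted p under 0.05, and 0.534% of 5997 genes were called. B2m was at 292, 309 and 371 CPM in the young and 382, 559 and 463 in the aged libraries, with no overlap (log2 fold change 0.60 ± 0.18, adjusted p = 0.16), and H2-K1 (0.63 ± 0.18, adjusted p = 0.15) and H2-Q4 (1.29 ± 0.37, adjusted p = 0.15) stood likewise. H2-Q4 passed without the young TN or the aged TN library (1.92 and 1.91). Of 8 genes with at least 20 UMIs 3 had every aged library above every young one, against 5.05% of genes. In immune cells 9 genes were tested, none had an unadjusted p under 0.05, and 0.022% of 4550 genes were called. Tap1 was at 86.2 to 98.9 CPM in young and 64.1 to 79.7 in aged immune cells, the 1 gene of 9 with at least 20 UMIs whose aged libraries all lay below the young, against 6.82% of genes. A self-test recovered 0.5% of simulated 2-fold changes there, against 90.5% in Dpp4+ fibroblasts, so a change of that size was not detectable in immune cells at this depth.

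For temperature 3 of the 10 genes passed in Icam1+ preadipocytes, and in edgeR none passed in the other classes. Temperature was tested as a difference among the 3 temperatures with age as a term, and 5.63% of 13082 genes were called there. Tap1 was at 33.3, 45.8 and 37.6 CPM in the young TN, 3D and 14D libraries and at 30.7, 42.7 and 31.0 in the aged ones. At both ages the 3D library was the highest, and the log2 fold change over TN was 0.49 at 3 days and 0.10 at 14 days (edgeR adjusted p = 0.021). H2-T23 was at 96.5, 118 and 96.6 CPM in the young and 96.1, 141 and 102 in the aged libraries (0.45 at 3 days and 0.05 at 14 days, adjusted p = 0.036). Psmb8 was at 98.4, 124 and 121 CPM in the young and 91.4, 126 and 104 in the aged ones (0.43 and 0.25, adjusted p = 0.049). B2m, H2-K1 and H2-D1 did not pass (log2 fold changes over TN of 0.03 to 0.23 at 3 days).

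None of the 3 passed without a term for age, or without the young 3D or the aged 3D library, where 0 of the 10 genes passed. With cells thinned to 2000 UMIs H2-T23 alone passed. Psmb8, the closest to the threshold, also did not pass with RLE size factors, Leiden clusters, a gate without Icam1 or without the aged TN library (adjusted p = 0.051 to 0.083). With 1 library per age and temperature, the 3D libraries and the temperature cannot be told apart from other differences between those libraries. In Dpp4+ fibroblasts none of the 10 genes passed in edgeR, 4 had an unadjusted p under 0.05, DESeq2 called 1, and 5.91% of 13173 genes were called. H2-T23 was at 98.4, 108 and 82.9 CPM in the young and 92.7, 143 and 105 in the aged Dpp4+ libraries, again highest at 3 days (0.35, adjusted p = 0.088). Leaving out the young 14D or the aged 14D library leaves 1 library at 14 days, so the count of such a fit is not read here. In the other 4 classes none passed in edgeR, with 2 of the 10 under an unadjusted p of 0.05 in Cd142+ fibroblasts (1.55% of 11351 genes called), 1 in endothelial cells (1.18% of 10170), 0 of 6 in SMC/pericytes (0.4% of 5997) and 1 of 9 in immune cells (0% of 4550), and DESeq2 called none of them.

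**Figure D4:**
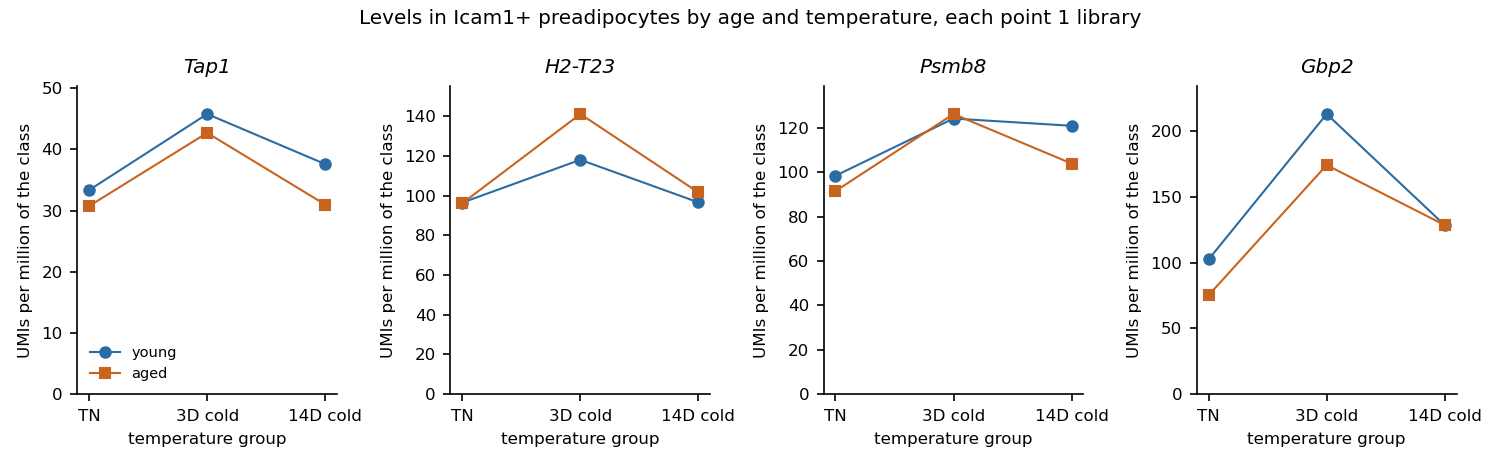
Levels of Tap1, H2-T23, Psmb8 and the interferon-induced gene Gbp2 (vertical axes, CPM, from 0) in Icam1+ preadipocytes at TN and after 3 and 14 days of cold (horizontal axes). Each point is 1 library, circles young and squares aged. The 3D library is the highest at both ages in all 4 panels, with Gbp2 at 213 and 174 against 102 and 75.2 at TN.

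Genes of interferon gamma signalling, a list of 16 genes that holds its receptor, kinases, transcription factors and targets, were tested in the same fits. In Icam1+ preadipocytes 7 of the 16 passed for temperature, against 5.63% of all genes. The largest were Ifi47, Irf8 and Gbp2, at log2 fold changes of 1.19, 1.16 and 1.15 over TN at 3 days and 0.74, 0.44 and 0.55 at 14 days. These calls come from the main fit and the same libraries as those of the 10 genes, and alternatives are not given for this list. Gbp2, a guanylate-binding protein induced by interferon, was at 102, 213 and 128 CPM in the young and 75.2, 174 and 129 in the aged libraries. In Dpp4+ fibroblasts 4 of the 16 passed (5.91% of all genes), in Cd142+ fibroblasts, endothelial cells and SMC/pericytes 1 each (1.55%, 1.18% and 0.4%), and in immune cells 0 of 12 (1 with an unadjusted p under 0.05). For age, 4 of the 16 passed in Icam1+ preadipocytes, against 13.1% of all genes, all lower: Cxcl9 (log2 fold change -1.07), Cxcl10 (-0.85), Irf1 (-0.49) and Socs1 (-0.40). In Dpp4+ fibroblasts 3 of the 16 passed, a share near the 16.2% of all genes, with Ifi47 higher (0.71) and Cxcl10 (-0.51) and Jak1 (-0.20) lower. Cxcl9 was higher in aged Cd142+ fibroblasts (0.76), Ifngr2 lower in endothelial cells (-0.88), and Cxcl10 (2.97) and Irf1 (1.05) higher in SMC/pericytes. Between classes, 13 of the 16 were lower in Dpp4+ fibroblasts than in Icam1+ preadipocytes and 1 was higher, where 28.8% of all genes were called lower. The median log2 fold change was -0.66 for the 16 and -1.17 for the 10 class I genes.

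The other genes of the class I pathway, a list of 29 of which 27 are in the gene list of the files, were tested in the same fits. They hold the remaining immunoproteasome and proteasome subunits, the TAP partner and tapasin genes, chaperones, ERAP1, NLRC5 and further class I and class I-like genes. For age, 5 of the 22 tested passed in Dpp4+ fibroblasts, a share not far from the 16.2% of all genes called, with a median log2 fold change of 0.04. Nlrc5, the class I transactivator, was 2.49-fold higher, at 1.49, 1.37 and 1.59 CPM in the young and 2.55, 5.86 and 3.19 in the aged libraries (1.32 ± 0.25, edgeR adjusted p = 0.0063). Its change with age also differed from that in Icam1+ preadipocytes (by 1.083 ± 0.22, edgeR adjusted p = 0.042), a call that was lost whichever library was left out (0.92 to 1.20, adjusted p = 0.062 to 0.22) and with DESeq2 (1.076, adjusted p = 0.093). The peptide-loading chaperones Pdia3 (-0.31) and Calr (-0.23), the trimming peptidase Erap1 (-0.24) and the Fc receptor gene Fcgrt (-0.25) were lower. H2-M3 was lower with age in Icam1+ preadipocytes (-0.28) and Cd142+ fibroblasts (-0.37), the 1 of 22 and the 1 of 21 to pass there (13.1% and 9.64% of all genes), and none passed in endothelial cells (0 of 22), SMC/pericytes (0 of 15) or immune cells (0 of 19) in edgeR, where 5, 1 and 1 had an unadjusted p under 0.05. For temperature 1 passed, Psmb10 in Icam1+ preadipocytes, the third inducible immunoproteasome subunit (0.35 over TN at 3 days and 0.03 at 14 days). That is 1 of the 22 tested there, a share near the 5.63% of all genes called.

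The gene most like B2m was the classical heavy chain H2-K1. Over the 36 sums of 6 classes and 6 libraries, the genes with the highest Pearson correlation with B2m of log2(CPM + 1), among 6235 genes of at least 20 CPM on average, were H2-K1 (r = 0.95), Arpc1b (0.92), H2-D1 (0.91), Vsir (0.91) and AW112010 (0.91). H2-Q6 ranked 13th, H2-T23 18th, Psmb8 23rd, H2-Q7 24th, Tap1 79th and H2-Q4 88th. The sums of a class share their cells' identity and those of a library its depth, so the correlation mostly follows the levels of the 6 classes and is given as a description.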

How the data were processed

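Single-cell libraries (10x 3′ v3.1) were made from CD45-depleted iWAT stromal vascular cells, 1 library for each of 2 ages and 3 temperatures. The study's methods say that mice were pooled only where stated and name no pooling for these libraries, but give no number of mice per library. The deposited files hold raw UMI counts per gene and barcode, made by the authors with Cell Ranger (3.1.0 in the matrix header) on mm10, and the submitters' notes also name R 4.1.1 and Seurat. Cells within 3 median absolute deviations of their library were kept.

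A cell was called ASPC with at least 6 of 10 ASPC markers and no other lineage, or another lineage with at least 4 of its 10 markers (immune 3) and at most 5 ASPC markers. ASPC subsets needed a lead of 0.3 in mean z-score. Of 49808 ASPCs, 11.2% lay within 0.1 of that minimum, and 1708 cells lay at the SMC/pericyte minimum or 1 marker below, against 728 in the class. The gate's numbers were set after the files had been seen. No doublet caller was run, and the 2328 cells with markers of more than 1 lineage were left out.

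Counts were summed per class and library and tested with edgeR 4.0.16 (quasi-likelihood, TMM, filterByExpr, R 4.3.3) at an adjusted p of 0.05, Benjamini-Hochberg over all genes. SE is the log2 fold change over the square root of F. Age was fitted with temperature as a term and temperature with age. Classes were compared in 1 fit with library as a block, "ASPCs" being the mean of the 3 subsets on the log scale. With 1 library per condition, p-values for age or temperature rest on the spread between libraries left after the other term. Those between classes and for the difference in age effect have library as a block. They rest on how the difference between classes varies over libraries. A step on simulated counts was run for each age comparison. Alternatives were DESeq2 1.42.0, RLE factors, no filter, no second term, each library left out, a stricter gate, fixed cell limits (1000 to 7000 genes, at most 10% mitochondrial UMIs), Leiden clusters (leidenalg 0.10.2), thinning to 2000 UMIs, and, chosen after seeing the data, a gate without Icam1 and all alternatives for the difference in age effect. The 10 genes and all lists were chosen with earlier results of these data known. Of list genes, those past the threshold for age were named, at most 3 each way per class by size, and a few others for temperature or because a count was small were named after their values were seen.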

Additional observations from a re-analysis of the deposited data

Results flagged for a closer look

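The test of the difference in age effect between cell classes called 3 of the 10 genes in 1 contrast and 2 in another, with B2m in both. Between Dpp4+ fibroblasts and Icam1+ preadipocytes the log2 fold change with age differed by 0.541 for B2m, 1.484 for H2-Q6 and 1.29 for H2-Q7, higher in Dpp4+ fibroblasts. In that contrast 1.72% of 13735 genes were called. Between Cd142+ fibroblasts and Icam1+ preadipocytes it differed by 0.475 for B2m and 0.378 for H2-K1, higher in Cd142+ fibroblasts. There 1.3% of 12472 genes were called. H2-K1 was at an adjusted p of 0.049 in edgeR and 0.053 with RLE size factors, and with single libraries left out it passed only without the young 3D library. With each library left out in turn, H2-Q6 and H2-Q7 passed every time, B2m in Dpp4+ fibroblasts only without the aged TN library, and B2m in Cd142+ fibroblasts in every case but without the young 14D library. The contrasts share the sums of Icam1+ preadipocytes, so the result for B2m in both is not independent.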

How the results depend on the processing

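No replicate number pairs the libraries, since each group has 1, and the age fit with temperature as a term already sets 1 young against 1 aged library at each temperature. Of 827 values for single genes that passed, 775 kept their side of the threshold and, where the test has a direction, their direction. The temperature test has none and was judged by the threshold only. Of the rest, 50 no longer passed and 2 changed direction: with Leiden clusters, H2-Q6 (0.48) and H2-Q7 (0.52) in SMC/pericytes against ASPCs. For age, the number of the 10 genes past the threshold went in Cd142+ fibroblasts from 1 to 0 with thinned cells or a stricter gate and to 2 with Leiden clusters or fixed cell limits. In Dpp4+ fibroblasts it went from 3 to 1 without the temperature term, in Icam1+ preadipocytes from 1 to 2 with no filter or a stricter gate, in endothelial cells from 0 to 2 with no filter, and in SMC/pericytes from 0 to 2 with Leiden clusters, fixed limits or no filter. For temperature it went in Dpp4+ fibroblasts from 0 to 1 with DESeq2 or a stricter gate and 4 with no filter, in Icam1+ preadipocytes from 3 to 1 with thinned cells, 0 without the age term and 6 with no filter, and in SMC/pericytes from 0 to 1 with no filter. For the difference in age effect it went for Cd142+ against Icam1+ from 2 to 1 with RLE factors and 6 with no filter, for endothelial cells from 0 to 1 with no filter, and for SMC/pericytes from 0 to 2 with DESeq2, 1 with RLE and 4 with no filter. The causes were not tested. The share of all genes called in each of these fits, and in those below with a library left out, is not given. A higher count there is therefore not shown to be particular to the 10 genes. The SMC/pericyte fits of the difference in age effect hold genes with few UMIs in that class, as given above. Leaving out each library gave, for age, 0 to 2 genes in Cd142+, 2 to 6 in Dpp4+, 0 to 2 in endothelial, 1 to 2 in Icam1+, 0 to 0 in immune cells and 0 to 1 in SMC/pericytes. For temperature it gave 0 to 1, 0 to 5, 0 to 2, 0 to 4, 0 to 0 and 0 to 0 in the same order, and between classes 9 to 9 (Cd142+ against Icam1+), 2 to 5 (Dpp4+ against Cd142+), 8 to 9 (Dpp4+ against Icam1+), 9 to 9 (endothelial), 8 to 8 (immune) and 9 to 10 (SMC/pericytes). For the difference in age effect, an alternative chosen after seeing the data, it gave 0 to 3 (Cd142+ against Icam1+), 0 to 0 (Dpp4+ against Cd142+), 2 to 3 (Dpp4+ against Icam1+), 0 to 0 (endothelial) and 0 to 2 (SMC/pericytes). Immune cells gave no value with a stricter gate, fixed limits or thinning, where a library had fewer than 20 cells.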
